A study of Mus musculus with 82 samples.

Results

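Cyp2d9, Cyp2d10, Cyp2d22 and Cyp2f2 are cytochrome P450 genes of mouse liver, and they were chosen by the symbol that the array platform gives to their probes. Each had 1 probe, so the 4 genes were 4 of 21915 measured features and 4 of the 3439 features with a gene name. The study measured liver RNA of BXD recombinant inbred mice, whose genomes are mosaics of C57BL/6J (B6) and DBA/2J (D2), on 82 two-colour arrays. On 74 arrays liver RNA met pooled RNA of B6 embryos at day 17.5 (the embryo mix), and these arrays held 32 of BXD males, 40 of BXD females and 2 of B6 males. On 6 arrays B6 liver met D2 liver directly, 3 labelled M and 3 labelled F, and 2 further arrays set RNA labelled as enriched B6 against enriched D2. The series description gives an age of 10 to 20 weeks, 18 BXD strains and 3 unfasted males per strain, while the labels hold 17 BXD strains and both sexes. No treatment was named for any group, and the number of mice behind each RNA is not given in the sources used.

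Cytochrome P450 enzymes of these families sit in the endoplasmic reticulum and oxidize drugs, steroids and other lipophilic compounds with electrons from P450 reductase. The Cyp2d genes lie in a cluster of closely similar copies. Cyp2d9 is a testosterone hydroxylase long known as a male-biased enzyme of mouse liver, Cyp2d22 is often compared with the human drug-metabolizing enzyme CYP2D6, and Cyp2d10 is a further member of the cluster. Cyp2f2, from a separate cluster, activates naphthalene and is known from airway club cells and from hepatocytes near the portal vein. Sex bias of P450 genes in rodent liver is known to depend on the sex pattern of growth hormone secretion, which acts through STAT5b.

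Start-site sequences are shown for Cyp2d9 and Cyp2d10, copies of 1 cluster. Their sex differences were told apart with the arrays as deposited, but not under 1 other scaling. Their SD among females was 0.64 and 0.34, and these were not tested against each other. No link of the sequences to these differences was tested. The sequences come from RefSeq on build GRCm38.p6. They run from 250 bases before to 50 bases after the annotated start, in the direction of the gene. For Cyp2d10 the start used lies inside the annotated gene, whose upstream end is at 82407253, and its positions are counted from the start used. Cyp2d9 lies at chr15:82452127-82452426 on the plus strand and Cyp2d10 at chr15:82407145-82407444 on the minus strand. Capitals mark matches to TATAAA, the TATA box. They also mark CCGGAA, the core letters bound by ETS factors. A further marked word is CAAAGGGCA. Each was searched on both strands, with letters chosen while the sequences were in view.
Cyp2d9: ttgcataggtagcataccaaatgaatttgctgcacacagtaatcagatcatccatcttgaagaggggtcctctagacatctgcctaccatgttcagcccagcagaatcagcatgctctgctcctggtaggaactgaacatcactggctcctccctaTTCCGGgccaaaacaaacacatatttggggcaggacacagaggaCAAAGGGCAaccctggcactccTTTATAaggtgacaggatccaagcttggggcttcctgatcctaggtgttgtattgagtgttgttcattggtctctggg
Cyp2d10: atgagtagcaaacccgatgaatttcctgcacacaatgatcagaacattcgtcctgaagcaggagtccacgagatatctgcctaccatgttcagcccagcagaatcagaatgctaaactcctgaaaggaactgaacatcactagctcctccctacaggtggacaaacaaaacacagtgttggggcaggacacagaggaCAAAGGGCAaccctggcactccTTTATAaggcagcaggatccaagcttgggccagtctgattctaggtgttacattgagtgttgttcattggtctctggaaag

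The aligned Cyp2d9 and Cyp2d10 windows were identical at 252 of 296 aligned bases (85.1%), whereas the Cyp2f2 window matched each of them at 51.6% of aligned bases. Both Cyp2d windows held TATAAA, read on the opposite strand as TTTATA, with its first base at -28 in Cyp2d9 and -31 in Cyp2d10 from the start site. That motif was in 13.6% of the 32851 promoters of the same length. CAAAGGGCA stood at -50 in Cyp2d9 and -53 in Cyp2d10, and 0.472% of all promoters held it. That word was taken from letters the Cyp2d9 and Cyp2d10 windows share, so its presence in both was set by the choice. CCGGAA, read as TTCCGG, was at -94 in the Cyp2d9 window and was not in the Cyp2d10 window, and 14.9% of all promoters held it. TTCNNNGAA, a STAT5 element in 8.3% of promoters, and CAAAGTCCA, an HNF4 element in 0.475%, were in none of the 3 windows. A match here is a match of letters, since no binding was measured. No motif marked in capitals overlapped another.

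A value is the log2 of the deposited ratio, turned so that liver (or B6) is on top. The labels give both channels the same dye, so the direction is likely rather than stated. It was read from 14 adult hepatocyte genes, whose lowest array median was 3.74, against 12 embryo genes outside liver, whose highest was -3.06, on all 74 embryo arrays. That check does not cover the direct arrays of B6 and D2, which were turned by the same reading of the channels. Each strain and sex had 1 to 5 arrays. Its value is the mean of the forward mean and the reverse mean. Of the 17 strains, 13 had both array orientations in both sexes, and BXD8, BXD9, BXD14 and BXD27 had 1 array per sex. An array of BXD11 females, whose title and channels disagree on orientation, was left out. Arrays of the same RNA in opposite orientations differed for the 4 genes by a median of 0.29 to 0.37 log2 units. That difference holds the error of 2 arrays and any steady offset between orientations. The mean offset, reverse minus forward, was 0.18 for Cyp2d9, -0.06 for Cyp2d10, 0.28 for Cyp2d22 and 0.21 for Cyp2f2. The median is therefore only a rough guide to the uncertainty of a single-array value. Intensities were not analysed here, so values are ratios and not levels, and 1 gene's ratio says nothing about its abundance beside another's.

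Before the results, 1 group of labels needs a caution. On the 3 direct arrays labelled B6F and D2F, sex-dependent genes were far apart although both RNAs carry the label F. The Y-linked genes Uty (0.57 to 1.37) and Eif2s3y (0.56 to 0.74) read higher in the RNA labelled B6F. Cyp2b9, a P450 gene that was 2.19 log2 units higher in BXD females than males, read from -2.92 to -2.52 there and from -0.26 to 0.14 on the arrays labelled M. Of 18 listed sex-biased or sex-linked genes that differed between BXD females and males, 17 had the sign of male against female on the arrays labelled F, and 7 of 18 did so on those labelled M. The oxysterol hydroxylase Cyp7b1 read 2.47 to 2.67 on the F arrays and -0.09 to 0.31 on the M arrays. On the BXD arrays Cyp2b9 and Cyp2b13 were higher, and Cyp7b1 lower, in the females of 17 of 17 strains. The Y-linked genes were less uniform there, with Uty lower in females in 14 of 17 strains and Eif2s3y in 15. Uty read higher in the females of BXD27 (0.38), BXD28 (0.54) and BXD18 (0.01), and Eif2s3y in those of BXD27 (0.10) and BXD8 (0.12). BXD27, where both Y-linked genes went against the labels, had 1 array per sex. Without BXD27 the sex differences below were -0.94 for Cyp2d9, -0.54 for Cyp2d10, -0.80 for Cyp2d22 and -0.57 for Cyp2f2, and all 4 stayed called. Results of B6 against D2 are therefore given for each label apart, beside a fit over both labels, which mixes them. Below, "B6F" means the RNA labelled so.

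All 4 genes were higher in adult liver than in the embryo mix, in all 13 strains with both orientations. Cyp2d9 stood 12.2-fold above the mix (log2 3.61 ± 0.086 SE) and Cyp2f2 11.7-fold (3.54 ± 0.050). Cyp2d10 was 7.58-fold higher (2.92 ± 0.049) and Cyp2d22 5.81-fold (2.54 ± 0.035). Each passed limma's moderated test over 13 strains, with Benjamini-Hochberg adjusted p-values from 1.63e-18 (Cyp2d22) to 1.79e-15 (Cyp2d9) and a required absolute log2 ratio of 1. By the same rule 4.72% of all features were called higher in liver and 9.22% lower, which makes 13.9% in all. The mix was a single reference, so its own variation is outside these errors.

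Among 12 other measured P450 genes of drug and steroid oxidation, 9 were higher in liver and 0 lower, with a median of 1.31. All 14 measured adult hepatocyte genes were higher (median 4.28), but the direction of that list helped to set the sign of the ratios. Of 6 measured electron donors and heme supply genes only Pgrmc1, a heme-binding partner of P450 enzymes, was called (3.09). No other gene of the Cyp2d cluster among 7 listed was measured. Of 3 measured lung airway and nasal genes, 1 was called lower in liver than in the embryo mix, the surfactant gene Sftpc (-5.25). The part of embryonic lung RNA in the Cyp2f2 ratio was not tested. In whole tissue, fewer cells of a type and less RNA per cell cannot be told apart.

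**Figure D1:**
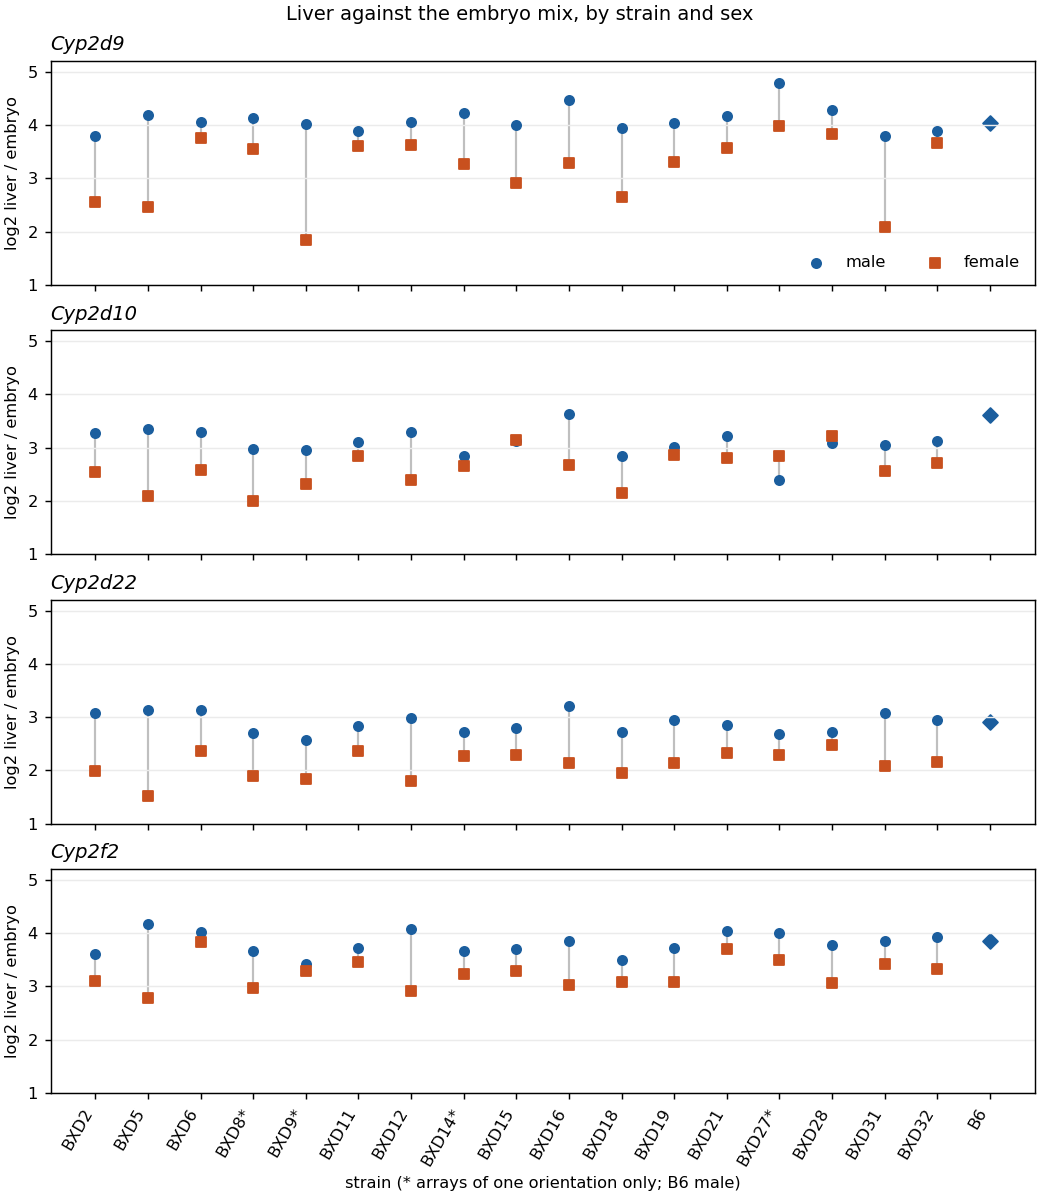
Log2 ratio of liver to embryo mix (vertical axis) for each strain (horizontal axis), with 1 panel per gene; blue circles are males, orange squares females, grey lines join the sexes of a strain, and the diamond is the B6 male pair. The Cyp2d22 squares all lie below every circle of that gene, and the Cyp2d9 squares spread from 1.85 to 3.99 while its circles stay between 3.79 and 4.79.

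In males Cyp2d9 ran from 3.79 in BXD31 through a median of 4.06 to 4.79 in BXD27. In females it ran from 1.85 in BXD9 through 3.31 to 3.99 in BXD27. The female values overlapped the male range in 2 strains, since 15 of 17 females lay below the lowest male. Cyp2d22 ran from 2.57 to 3.20 in males (median 2.86) and from 1.52 to 2.48 in females (median 2.14), with no overlap in 17 strains. Cyp2f2 males lay between 3.43 and 4.18 (median 3.78), females between 2.78 and 3.83 (median 3.23), and 13 of 17 females were below the lowest male. Cyp2d10 overlapped most, with males from 2.39 to 3.64 (median 3.11), females from 2.003 to 3.21 (median 2.66), and 4 of 17 females below the lowest male. How many of all features keep the sexes apart in this way was not counted, and overlap was not examined with arrays scaled differently. Between the sexes 33.3% of all features were called. The B6 male pair of arrays read 4.04 for Cyp2d9, 3.61 for Cyp2d10, 2.91 for Cyp2d22 and 3.86 for Cyp2f2. The B6 male Cyp2d10 value was exceeded in 1 of 17 BXD males and the Cyp2d9 value in 10 of 17.

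The 4 genes were all lower in females than in males of the same strain. Cyp2d9 fell by 0.93 ± 0.57 log2 units (SD over 17 strains, 1.90-fold) and was lower in the females of 17 of 17 strains. Cyp2d22 fell by 0.78 ± 0.34 (1.72-fold, 17 of 17 strains) and Cyp2f2 by 0.57 ± 0.33 (1.48-fold, 17 of 17 strains). Cyp2d10 showed the smallest mean difference, -0.48 ± 0.45 (1.40-fold), and was lower in 14 of 17 strains. In limma with strain as a block the adjusted p-values were 7.35e-05 for Cyp2d9, 5.04e-06 for Cyp2d22, 5.79e-05 for Cyp2f2 and 0.0014 for Cyp2d10. Sex differences were common on these arrays: 33.3% of features were called, 17.1% lower in females and 16.2% higher.

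The calls depended on how arrays were scaled. When every array was divided to a common median absolute deviation, Cyp2d22 stayed called at -0.46 (adjusted p = 0.0183 in limma). Cyp2d9 then read -0.47 (adjusted p = 0.0837), Cyp2d10 -0.11 (0.651) and Cyp2f2 -0.09 (0.769), and none of these 3 passed. Quantile normalization instead gave -1.01, -0.56, -0.83 and -0.64 for Cyp2d9, Cyp2d10, Cyp2d22 and Cyp2f2, and all 4 passed. The median absolute deviation of an array was 0.628 (median) in males and 0.580 in females. In the 4 strains with 1 array per sex 0 of 21915 features passed in limma, and the genes read -1.13 (Cyp2d9), -0.34 (Cyp2d10), -0.60 (Cyp2d22) and -0.44 (Cyp2f2). Arrays came in runs of neighbouring deposit numbers, and 5 runs held both sexes. Within them the mean over females minus the mean over males ran from -1.44 to -0.47 for Cyp2d9, -0.86 to -0.40 for Cyp2d22, -0.81 to -0.23 for Cyp2f2 and -0.60 to 0.46 for Cyp2d10. In 3 of the 5 runs no strain had both sexes, so strain and sex are mixed in those differences. The other 2 runs held the same strains in both sexes, 3 strains and 1 strain (BXD27), and gave -1.24 and -0.81 for Cyp2d9, -0.67 and -0.40 for Cyp2d22, -0.42 and -0.50 for Cyp2f2 and -0.60 and 0.46 for Cyp2d10. With the run as a term Cyp2d10 lost its call (-0.36, adjusted p = 0.122 in limma), and the other 3 genes kept theirs.

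**Figure D2:**
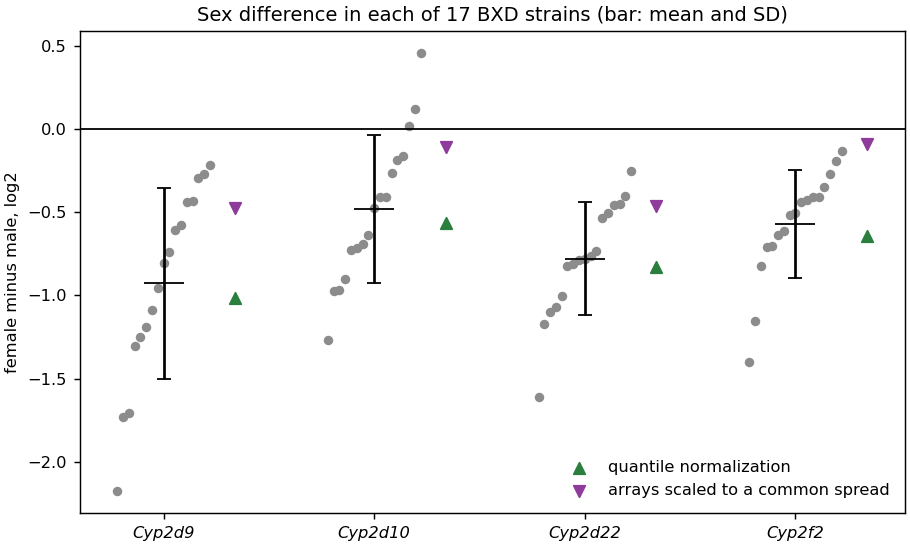
Female minus male difference in log2 ratio (vertical axis) for the 4 genes (horizontal axis); each grey point is 1 of 17 strains, black bars give the mean and SD, and triangles give the fitted difference under 2 other ways of normalizing the arrays. All grey points lie below 0 except 3 of Cyp2d10, and arrays scaled to a common spread bring the Cyp2d10 and Cyp2f2 differences to -0.11 and -0.09.

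Single strains differed widely for Cyp2d9. The largest gap was in BXD9, where the single female array read 1.85 and the single male array 4.03, a difference of -2.18. BXD5 followed at -1.73, with 2.24 and 2.67 on the female arrays and 4.04 and 4.33 on the male arrays. BXD31 followed at -1.71, and its 5 female arrays, of 3 replicate numbers, read 2.01, 2.04, 1.66, 2.56 and 1.91 while the 2 male arrays read 3.73 and 3.84. None of these female arrays reached a male array of its strain. The smallest gaps were -0.22 in BXD32 and -0.27 in BXD11. BXD32 had 4 female arrays at 3.50, 3.78, 3.54 and 3.86, all above every BXD31 female array.

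For the other 3 genes BXD5 had the largest gap. Its female minus male difference was -1.61 for Cyp2d22, -1.40 for Cyp2f2 and -1.27 for Cyp2d10, and its female value was the lowest of 17 strains for Cyp2d22 (1.52) and Cyp2f2 (2.78). The Cyp2d10 exceptions, with females above males, were BXD27 (0.46), BXD28 (0.12) and BXD15 (0.02). The BXD27 value rests on 1 array per sex, and the other 2 lay within the 0.31 median difference between orientations of the same RNA for this gene. The smallest gaps were -0.25 in BXD28 for Cyp2d22 and -0.13 in BXD9 for Cyp2f2, so BXD9 had the largest gap for Cyp2d9 and the smallest for Cyp2f2.

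The sex differences of the genes were compared pair by pair within strains, by 2-sided exact sign-flip permutation tests adjusted over 6 pairs. The Cyp2d10 difference was smaller than that of Cyp2d22 in all but 1 of 17 strains, by 0.30 ± 0.25 log2 units (SD; exact p = 0.000122, adjusted p = 0.000732). The Cyp2d9 difference exceeded that of Cyp2d10 in 13 of 17 strains (-0.45 ± 0.62; exact p = 0.00941, adjusted p = 0.0188). The Cyp2d22 difference exceeded that of Cyp2f2 in 15 of 17 strains (-0.21 ± 0.28; exact p = 0.00746, adjusted p = 0.0188). Cyp2d9 against Cyp2f2 was at the edge (-0.36 ± 0.66; exact p = 0.0321, adjusted p = 0.0481), and the adjusted p rose above 0.05 when any 1 of 12 of the strains was left out. Cyp2d9 against Cyp2d22 (-0.15 ± 0.53; exact p = 0.274) and Cyp2d10 against Cyp2f2 (0.09 ± 0.42; exact p = 0.403) were not separated. With arrays scaled to a common spread the pairs of Cyp2d9 with Cyp2d10 and with Cyp2f2 were not called (exact test, adjusted p = 0.0801 for both).

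Cyp2d9 varied more among females than among males. Its SD over 17 strains was 0.64 in females and 0.25 in males, a ratio of 2.56 (exact permutation of the sexes within strains, 2-sided p = 0.000153). In the 13 strains with both orientations the ratio was 2.95 (exact p = 0.0022). The ratio was 1.27 for Cyp2d10, 1.33 for Cyp2d22 and 1.33 for Cyp2f2, with exact p-values of 0.431, 0.253 and 0.199 in these 4 tests. It ran from 2.18 to 3.43 for Cyp2d9 when each strain was left out in turn, and was 2.50 after quantile normalization. With arrays scaled to a common spread it was 1.58 (exact p = 0.219), which no longer passed.

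**Figure D3:**
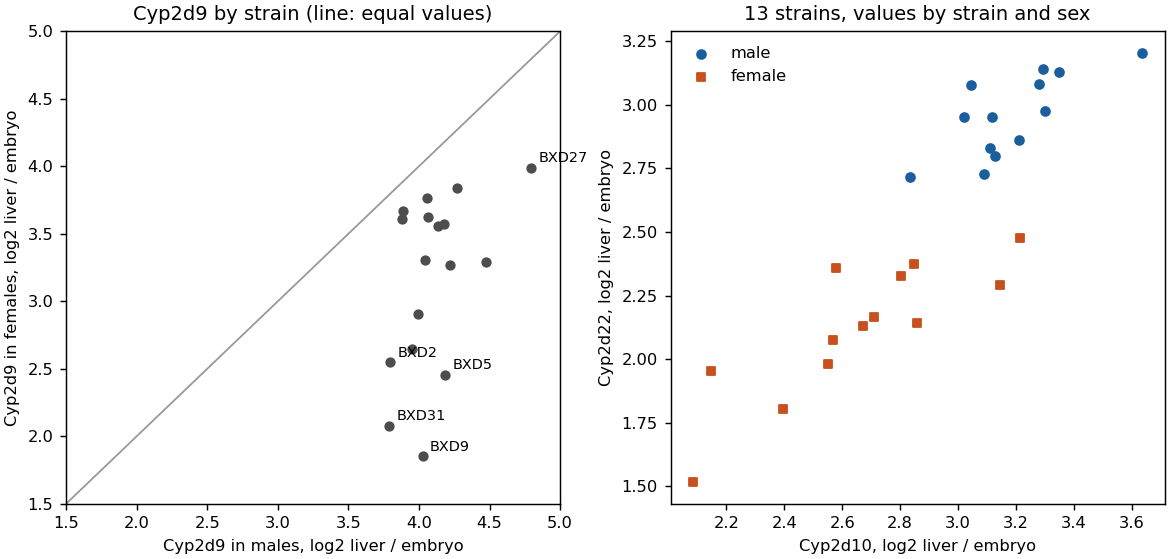
Left, Cyp2d9 log2 liver to embryo ratio in females (vertical) against males (horizontal) of 17 strains, with the line of equal values; right, Cyp2d22 against Cyp2d10 in 13 strains, blue circles for males and orange squares for females. All points on the left lie below the line and spread along the female axis (SD 0.64 against 0.25), and on the right the 2 genes rise together within each sex.

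Whether strains differed was tested with the sexes of a strain as its replicates, by limma's moderated F over 13 strains. None of the 4 genes passed, where 1.21% of features did. The strain SD was 0.34 for Cyp2d9 (residual SD 0.38, adjusted p = 0.451 in limma), 0.18 for Cyp2d10 (adjusted p = 0.72), 0.12 for Cyp2d22 (0.916) and 0.19 for Cyp2f2 (0.59). At an unadjusted p under 0.05, 14.2% of features passed and none of these genes did. A second fit, chosen after the data were seen, took females alone with replicate numbers as the error, on 17 values of 13 strains and 4 residual degrees of freedom, and left out the third BXD31 replicate, which had 1 orientation. There Cyp2d9 passed (strain SD 0.58 against a residual SD of 0.16, adjusted p = 0.0374 in limma), as did 2.45% of features, and 27.2% had an unadjusted p under 0.05. The residual came from repeats in 4 strains. Nothing says that replicate numbers mark separate mice, here or on the direct arrays, so p-values that rest on them measure the spread between these samples, which may be technical. Cyp2f2 (adjusted p = 0.0771), Cyp2d22 (0.198) and Cyp2d10 (0.463) did not pass in that limma fit.

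Male and female values of a strain did not follow each other detectably for any of the 4 genes over 13 strains. Pearson's r was 0.378 for Cyp2d9 (permutation p = 0.202), -0.401 for Cyp2d22 (permutation p = 0.175), -0.096 for Cyp2d10 (permutation p = 0.756) and 0.091 for Cyp2f2 (permutation p = 0.768), and Spearman's rho was 0.341, -0.346, -0.330 and -0.071 (permutation p = 0.253, 0.245, 0.27 and 0.822). All 4 adjusted p-values were 0.404 or higher for r and 0.36 or higher for rho. Without the 2 strains farthest from the male median r was 0.271, -0.629, -0.691 and 0.369 in the same order of genes.

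Cyp2d10 and Cyp2d22 varied together across strains within each sex. In females r was 0.836 (100000 permutations, p = 0.00025, adjusted p = 0.003 over 12 tests) and rho 0.841 (p = 0.00051, adjusted 0.00612), and r was 0.696 without BXD5 and BXD28. In males r was 0.738 (permutation p = 0.00237, adjusted 0.0142) and rho 0.731 (p = 0.00572, adjusted 0.0343), and r was 0.53 without BXD16 and BXD18. In females Cyp2d22 and Cyp2f2 had r = 0.677 (permutation p = 0.0109, adjusted 0.0436) and rho = 0.593 (p = 0.0368, adjusted 0.103), and r was 0.791 without BXD5 and BXD28. The other 9 pairs had adjusted p-values of 0.0871 or higher for r and 0.0628 or higher for rho. The genes of a strain and sex share arrays and their scaling. With arrays scaled to a common spread r rose for all pairs of males, up to 0.961 for Cyp2d22 with Cyp2f2. After quantile normalization the male r of Cyp2d10 with Cyp2d22 was 0.686 (permutation test, adjusted p = 0.0629).

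The named genes closest to each member were taken over 34 strain and sex values, after each sex mean was removed, from 3435 genes. For Cyp2d10 they were Cyp2d22 (r = 0.800), the lipid antigen presenter Cd1d1 (0.737) and the replication helicase subunit Mcm7 (0.707). For Cyp2d22 they were Cyp2d10, the extracellular chaperone clusterin Clu (0.666) and the neurotrophic factor persephin Pspn (0.641), with Cyp2f2 in place 5 (0.614). For Cyp2f2 they were Ndrg2 (0.701), the electron-donating ferredoxin reductase Fdxr (0.654) and catalase Cat (0.653). For Cyp2d9 the interferon regulator Irf7 (0.519), the glucocorticoid-inactivating Hsd11b2 (0.518) and the interferon-induced Ifit3 (0.465) came first. Cyp2d22 came 20th (0.393), Cyp2f2 235th (0.247) and Cyp2d10 256th (0.240). Over 17 strains Cyp2d9 and Cyp2d10 had r = 0.416 in females and -0.284 in males, while the male r was 0.594 over the 13 strains with both orientations. These correlations describe 34 values that share arrays by strain and sex, and carry no test.

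Neighbours in gene order did not share 1 sex pattern with the members. Among up to 15 genes on each side of the Cyp2d cluster 4 were measured: the respiratory chain subunit Ndufa6, next to the cluster, was higher in females (0.72, adjusted p = 0.00342 in limma) and the transcriptional coregulator Tcf20 was lower (-0.37, adjusted p = 0.00116), while Septin3 (0.09) and Pacsin2 (-0.07) did not pass. Around Cyp2f2 6 genes were measured. Cyp2b13 (2.15), Cyp2b9 (2.19) and Cyp2a4 (1.02), female-biased P450 genes, were higher in females, Cyp2g1 was lower (-0.24, adjusted p = 0.00583 in limma), and Cyp2b19 (0.00) and Numbl (0.55) did not pass. Cyp2f2 itself stood at -0.57.

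The counts of lists that follow stand beside 33.3% of all features called between the sexes, and a share near that is no result about a list. Across the wider family 8 of 12 other P450 genes passed in the sex comparison, 6 higher in females and 2 lower. Cyp7b1 had the largest fall (-2.51), against -0.93 for Cyp2d9. Of 5 measured genes listed as male-biased in liver, 4 read lower in females (median -1.45), among them the fatty acid elongase Elovl3 (-2.37), the monooxygenase Moxd1 (-1.45) and the growth factor receptor Egfr (-0.54). Of 14 regulators, Stat5a (-0.31) and Onecut1 (-0.36) were lower and Socs2, an inhibitor of growth hormone signalling (0.37), and the bile acid receptor Nr1h4 (0.34) were higher. Stat5b (0.04) and the growth hormone receptor Ghr (-0.01) did not pass. None of 6 electron donor and heme supply genes passed. Of 14 adult hepatocyte genes 5 were higher in females and 0 lower, with a median of 0.12 against 0.02 over all features. Of 9 periportal genes, the zone Cyp2f2 is known from, 1 was higher and 1 lower (median 0.04), and of 9 pericentral genes 3 were higher. Markers of other cells that passed were 3 of 4 for macrophages (2 higher, 1 lower), 2 of 5 for lymphocytes (both higher), 4 of 6 for the endothelium (2 higher, 2 lower) and 2 of 5 for stellate cells and fibroblasts (both higher). The single bile duct marker did not pass. The share of these cells in the members' differences was not tested.

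For strain differences 3 of 12 other P450 genes passed limma's F test, beside 1.21% of all features. They were the retinoic acid hydroxylase Cyp26a1 (strain SD 0.64, adjusted p = 0.00434), Cyp2c55 (0.64, adjusted p = 0.0364) and Cyp2c29 (0.48, adjusted p = 0.0486). Alad, an enzyme of heme synthesis, passed as well (0.71, adjusted p = 0.00791 in limma).

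On the arrays labelled M, the B6 to D2 ratios of the 4 genes lay between 0.04 and 0.59. Cyp2d9 read 0.56, 0.04 and 0.57 on 3 arrays, Cyp2d10 0.52, 0.06 and 0.45, Cyp2d22 0.14, 0.42 and 0.59, and Cyp2f2 0.18, 0.25 and 0.37. All 12 values were above 0, but they are 4 genes on the same 3 arrays and not 12 separate observations. On the arrays labelled F, Cyp2d9 read 2.46, 2.40 and 2.28, so every one was higher than every M array. Cyp2f2 (1.01, 1.02 and 0.91) and Cyp2d22 (0.71, 1.15 and 0.86) did not overlap the M arrays either. Cyp2d10 (0.53, 0.25 and 0.36) overlapped them. How many of all features lie apart in this way was not counted. For the difference between the labels 0% of features passed in limma, and 7.84% had an unadjusted p under 0.05. The 3 arrays of each label also include 2 of the same replicate number. The F arrays are those on which Uty, Eif2s3y, Cyp2b9 and Cyp7b1 differed between the 2 RNAs, so strain and sex cannot be told apart there.

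**Figure D4:**
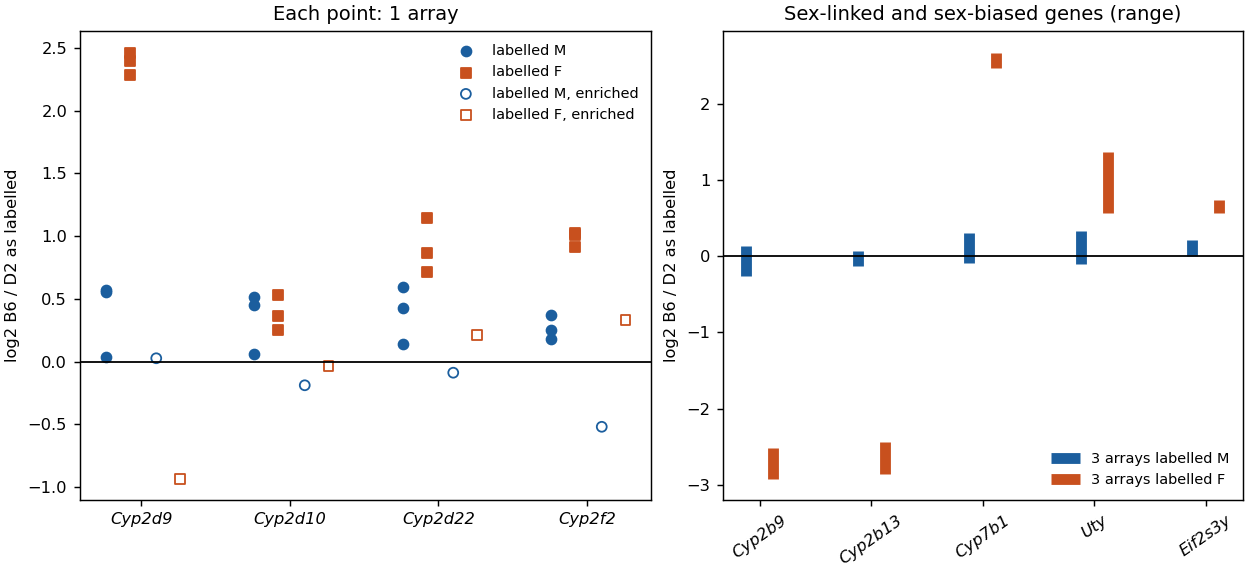
Log2 ratio of B6 to D2 as labelled (vertical axis). Left, 1 point per array for the 4 genes, filled for liver RNA and open for RNA labelled enriched, blue for label M and orange for label F; right, the range over 3 arrays of each label for genes linked to or biased by sex. Cyp2d9 lies between 2.28 and 2.46 on F arrays and between 0.04 and 0.57 on M arrays, and Cyp2b9 reaches -2.92 on F arrays.

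Over all 4 values, 1 per label and replicate number, B6 was not separated from D2 for any of the genes. The replicate 1 pairs were 1 labelled M and 1 labelled F, for Cyp2d9 0.30 and 2.43, so the gap between labels enters the SE. Replicate 2 has 1 orientation only, so with an orientation term the estimate is the mean of these pairs over both labels. It was 1.36 ± 0.65 (SE) for Cyp2d9, 0.34 ± 0.11 for Cyp2d10, 0.61 ± 0.19 for Cyp2d22 and 0.61 ± 0.25 for Cyp2f2, each with adjusted p = 1 in limma. In that limma fit 0% of features passed, and 2.6% had an unadjusted p under 0.05. Cyp2d10 and Cyp2d22 were among the latter. With a sex term added the arrays labelled M gave 0.40 for Cyp2d9, 0.34 for Cyp2d10, 0.38 for Cyp2d22 and 0.28 for Cyp2f2 (adjusted p = 1 in limma). The arrays labelled F gave 2.33, 0.34, 0.84 and 0.95 (adjusted p = 0.335 to 0.616 in limma). The M arrays alone, as 2 values, gave 0.43, 0.37, 0.44 and 0.29 (adjusted p = 0.749 in limma).

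The difference between the labels was 1.92 ± 0.18 (SE) for Cyp2d9, 0.67 ± 0.15 for Cyp2f2, 0.46 ± 0.17 for Cyp2d22 and 0.01 ± 0.14 for Cyp2d10, F minus M. Cyp2d9 ranked 22nd of 21915 features by p, but its adjusted p was 0.575 in limma, and 0% of features passed while 7.84% had an unadjusted p under 0.05. In the BXD strains Cyp2d9 had the largest of the 4 mean sex differences, 1.90-fold. It reached 4.52-fold in BXD9, from a single female and a single male array. Cyp2d10 read -0.48 between BXD females and males, while its difference between the labels was 0.01. Strain and sex cannot be told apart on the arrays labelled F, and a link to the BXD sex differences was not tested. The BXD arrays and the direct arrays share no array.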

How the data were processed

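There were 82 two-colour arrays with 21936 probes each. The authors deposited a log ratio for every probe and array without naming its base. It was read as log10, since 94 deposited values equal 2 or -2, a 100-fold limit on that scale. They were multiplied by 3.32 to log2. The sources used name no scanner, software, normalization or genome build. Of the values none was missing and 2388 were exactly 0. Array medians ran from -0.08 to 0.12.

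Each array was turned so that liver, or B6, was the numerator, as its channels say. Unturned, 32 pairs of opposite orientation correlated at -0.895 to -0.555 across features. The direct pairs correlated at 0.0188 (label M) and -0.133 (label F), and the part shared by orientation at 0.764 and 0.678 with that of the BXD arrays. The BXD11 female array in doubt had a median r of 0.827 with liver-first arrays. No 2 arrays held identical values.

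The platform annotation held 1 symbol for 3290 probes and several for 4, and 170 more were named through RefSeq gene IDs and accessions (GRCm38.p6). The other 18476, the 4 with several symbols among them, were tested but not named. Which transcripts of the Cyp2d cluster each probe binds was not tested. Promoters were found for 3 of the 4 genes.

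Fits used limma 3.58.1 in R 4.3.3 over all 21915 features with Benjamini-Hochberg adjustment at 0.05: the intercept over 13 strain means for liver, strain as a block over 34 values for sex, an F over 26 values for strains, and 4 values with an orientation term for B6 against D2. Pairs of sex differences and the female to male spread ratios were tested by exact permutation over strains, and correlations by 100000 permutations. The number of arrays limits the precision. The fits were tested on simulated data of 21915 features with 200 changed by 2 log2 units, and recovered 99.5% for sex, 97.5% for strains and 77.5% for B6 against D2. With 0.5 log2 units they recovered 79%, 30.5% and 0%. The simulated noise was independent between arrays, with the SD between BXD arrays of a strain and sex. It held no strain by sex variation, shared RNA, dye effect or gap between labels. These shares are therefore not the power of the fits on the real arrays. Replicate numbers paired no samples in the labels. The same-numbered M and F values of the direct arrays deviated with r = 0.325 across features, in 2 groups of 2.

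The 4 genes, the gene lists and the tests were chosen with earlier results of these data known. Named genes were the 4 members, up to 4 called genes of a list with the largest change, the 3 genes most like each member and measured neighbours among 15 genes on each side. Stat5b and Ghr, and the uncalled neighbours, were named after their values were seen. The female-biased list is used without 1 gene, which is not reported here. Other settings tried were quantile normalization, centring and scaling of arrays, orientation, strains, replicates, runs and the enriched arrays.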

Additional observations from a re-analysis of the deposited data

Results flagged for a closer look

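The 2 arrays of RNA labelled enriched, 1 per sex, went against the other arrays of their label for some of the 4 genes. On the enriched F array Cyp2d9 read -0.93, while the 3 other F arrays read 2.28 to 2.46. On the enriched M array Cyp2f2 read -0.52, Cyp2d10 -0.19 and Cyp2d22 -0.089, while the 3 other M arrays were above 0 for each. Cyp2d10 read -0.037 on the enriched F array. The Cyp2d10 and Cyp2d22 values lie within the median difference between orientations of the same RNA, 0.31 and 0.29. The label does not say what was enriched, each such RNA had 1 array of 1 orientation, and these differences were not tested. Of the 18 sex-dependent genes called in BXD livers, 7 had on the enriched F array the sign of their median on the other F arrays, among them Cyp2a4 (-1.20) and Abcb1a (-0.72), and 11 had the opposite sign, among them Cyp2b9 (0.30) and Cyp7b1 (-1.26). Cyp7b1 read -1.22 on the enriched M array as well.

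Among 20 sets of 4 or 5 arrays, 2 had 1 array far from the rest by Dixon's ratio, both for Cyp2d22, and chance flags about 1 set in 20. In BXD21 females 1 array read 2.87 and the other 3 read 2.10, 2.16 and 2.18. In BXD6 males 1 array read 3.55 and the other 3 read 2.98, 2.96 and 3.06. Leaving out any 1 strain kept the Cyp2d22 sex difference between -0.81 and -0.73.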

How the results depend on the processing

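With arrays scaled to a common spread, the sex differences of Cyp2d9 (-0.47), Cyp2d10 (-0.11) and Cyp2f2 (-0.089) lost their calls. The differences between the sex differences of Cyp2d9 and Cyp2d10 (-0.36) and of Cyp2d9 and Cyp2f2 (-0.38) lost theirs, and that of Cyp2d10 and Cyp2f2 was -0.018. The female to male spread ratio became 1.58 for Cyp2d9, 0.98 for Cyp2d10 and 0.87 for Cyp2d22. The correlation in males rose to 0.937 (Cyp2d9 and Cyp2d10), 0.880 (Cyp2d9 and Cyp2d22), 0.873 (Cyp2d9 and Cyp2f2), 0.939 (Cyp2d10 and Cyp2f2) and 0.961 (Cyp2d22 and Cyp2f2), and in females to 0.613 (Cyp2d9 and Cyp2d10), 0.661 (Cyp2d9 and Cyp2d22) and 0.729 (Cyp2d10 and Cyp2f2). Between male and female strain values it became -0.293 for Cyp2d9, 0.026 for Cyp2d10 and -0.281 for Cyp2f2. The difference between labels in B6 against D2 changed sign for Cyp2d10, at -0.042 here and -0.038 under quantile normalization. Quantile normalization also gave a spread ratio of 0.85 for Cyp2d22 and correlations of 0.686 (Cyp2d10 and Cyp2d22, males) and 0.613 (Cyp2d22 and Cyp2f2, females). The cause was not tested.

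The 4 strains with forward arrays only gave -1.13, -0.34, -0.60 and -0.44 for Cyp2d9, Cyp2d10, Cyp2d22 and Cyp2f2, with fewer samples and no calls. The run term gave -0.36 for Cyp2d10. Females alone gave a called strain SD of 0.585 for Cyp2d9. Over strains left out in turn the Cyp2d9 and Cyp2f2 comparison ran from -0.43 to -0.25. Replicate numbers as a block changed no call of the members (Cyp2d9 -0.91 between sexes). For B6 against D2 that setting gives the main estimate by construction (1.36 for Cyp2d9), so it is no check of the estimate there. The number of features called for strains was 265. It was 156, 147, 101, 2020, 150 (without BXD15) and 538 under the settings that moved it most. For sex it was 7295, with 0 or 4695 under the settings that moved it most and 5745 to 8342 under the others. For B6 against D2 it was 0, and 3 to 193 under the settings that changed it. For the difference between labels it was 0, and 4 or 33 under the settings that changed it. Counted as 1 member in 1 comparison under 1 other setting, 389 results kept direction and call. Of these, 95 for strains, 60 for B6 against D2 and 22 for the difference between labels were uncalled and stayed so. By the same count 8 sex results lost their call, 1 strain result gained a call and 2 label differences changed sign. The spread test, the females-only fit, the fits by label and the alternatives of the exact and correlation tests were added after seeing the data.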
